A study of Mus musculus with 2 samples.

Results

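The genes described here encode 9 proteins that fuse, divide or fold mitochondrial membranes, measured in brown adipose tissue, a fat depot that produces heat: Mfn1, Mfn2, Opa1, Oma1, Yme1l1, Dnm1l, Fis1, Mff and Immt. They were chosen by name and matched through their Entrez identifiers. All 9 were listed in both libraries, out of 16174 genes listed in either. RNA was sequenced from the tissue of female C57BL/6 mice of 45 weeks kept on chow for 45 weeks, and each genotype has 1 library. The control mice were of genotype D3Bfl/fl, with floxed alleles of D3B and no Cre named in the label. The knockout mice were of genotype D3Bfl/fl-UCP1-Cre+/-, which share the floxed alleles and in addition carry a Cre recombinase under the Ucp1 promoter, which is active in brown adipocytes. Vessel, stromal and immune cells would keep the gene. D3B is read as Dnmt3b, which encodes a DNA methyltransferase, from knowledge of the study. The labels do not give the number of mice behind a library.

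Mitochondria of brown adipocytes fuse and divide continuously. The mitofusins MFN1 and MFN2 are GTPases that join outer membranes, and OPA1 is the GTPase that joins inner membranes and keeps cristae tight. The proteases OMA1 and YME1L1 cut OPA1 into its short forms, OMA1 mainly when the inner membrane is depolarised or stressed. DRP1, the product of Dnm1l, is a dynamin that is recruited from the cytosol to constrict and divide the organelle, with MFF as a receptor and FIS1 as another outer membrane protein linked to fission. IMMT, also called MIC60, is the core of the MICOS complex at the necks of cristae. In brown fat, adrenergic stimulation is known to drive DRP1-dependent fragmentation, MFN2 to link mitochondria to lipid droplets, and OMA1 to be needed for a normal response to cold in mice.

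The control library held 9666528 expected counts and the knockout library 10068359. With 1 library per group the spread between mice is unknown and no test between genotypes can be made. The values compare these libraries, and each range in brackets is a 95% counting interval that covers counting error only and treats reads copied by PCR as separate molecules. The control was run on lane 2 and the knockout on lane 1, so lane, Cre transgene and loss of D3B cannot be told apart. The targeted gene Dnmt3b had 15 counts (0.39 FPKM) in the control and 7 counts (0.18 FPKM) in the knockout library. The ratio of 0.462 had an interval of 0.159 to 1.2, so a lower level was not detectable at this depth, and exons outside the deleted part are counted too. Ucp1, which encodes the uncoupling protein, was at 4987 FPKM (control) and 4271 FPKM (knockout). In bulk tissue, fewer cells of a type and less RNA per cell cannot be told apart.

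DNMT3B acts on CpG dinucleotides, so the sequence before the start of each gene is of interest, though no methylation was measured here. All 9 genes matched a promoter entry of RefSeq (build GRCm38.p6), with 14 annotated starts in all. In the 250 bases before the first start listed for each gene there were 10 to 26 CpG sites, with a median of 16. These values depend on which start is listed first. The 26 sites belong to the first listed start of Dnm1l, and the window of its other start, which lies further upstream, had 8. Windows of the other starts had 5 sites for Fis1, 15 for Mff, and 22 and 25 for Mfn2. Over 12669 genes listed in a library with a promoter entry the median was 14, and the middle 50% of genes had 7 to 22. Promoters are printed for Oma1 and Opa1, which hold a match to the NRF1 element, and for Fis1, which had the lowest knockout to control ratio of the 9 genes. They are written 5′ to 3′ on the strand of the gene, with CpG sites in capitals. The Oma1 window is chr4:103313596-103313845 on the plus strand with 16 CpG sites, the Opa1 window is chr16:29579084-29579333 on the plus strand with 13, and the Fis1 window is chr5:136953025-136953274 on the plus strand with 18.
Oma1: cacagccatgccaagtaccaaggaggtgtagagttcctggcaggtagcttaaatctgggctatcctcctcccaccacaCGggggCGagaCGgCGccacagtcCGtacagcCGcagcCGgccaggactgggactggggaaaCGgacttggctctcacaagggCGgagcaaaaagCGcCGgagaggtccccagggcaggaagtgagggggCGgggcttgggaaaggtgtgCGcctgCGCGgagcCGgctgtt
Opa1: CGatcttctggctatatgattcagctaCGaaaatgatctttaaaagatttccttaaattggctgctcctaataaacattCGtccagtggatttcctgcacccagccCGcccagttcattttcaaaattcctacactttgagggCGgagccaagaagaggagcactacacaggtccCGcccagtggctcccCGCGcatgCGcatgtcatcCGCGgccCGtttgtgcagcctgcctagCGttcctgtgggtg
Fis1: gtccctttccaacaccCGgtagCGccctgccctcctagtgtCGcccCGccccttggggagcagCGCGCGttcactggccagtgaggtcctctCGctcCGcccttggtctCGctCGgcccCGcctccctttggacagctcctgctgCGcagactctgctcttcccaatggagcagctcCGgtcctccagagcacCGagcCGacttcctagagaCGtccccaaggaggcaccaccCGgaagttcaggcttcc

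NRF1 is a transcription factor of many nuclear genes for mitochondrial proteins, and its binding is known to be sensitive to CpG methylation. Its element was searched as GCGCA and GCGC with 1 base of any kind between them, on both strands, a site that reads as a match on both being counted once. A match was found in the window of Opa1 (GCGCATGCGC, starting 59 bases before the start) and in that of Oma1 (GCGCCTGCGC, starting 23 bases before it, read on the other strand), and in none of the other 12 windows. A match is held by 7.22% of the windows of listed genes. The estrogen-related receptor element TCAAGGTCA and the cyclic AMP element TGACGTCA, also searched on both strands, were in none of the 14 windows and in 0.260% and 2.47% of the windows of listed genes. No window held more than 1 kind of element, and a match is a description of letters, not of binding. Nrf1 itself was at 4.33 FPKM (control) and 3.4 FPKM (knockout), with a ratio of 0.785 (0.608 to 1.01). A part for such sites in the levels of Oma1 and Opa1 was not tested.

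The 9 genes covered a wide span of levels. FPKM is a level per length of transcript, so genes can be roughly compared with each other. The counting intervals do not cover bias between genes from length or GC content. Immt was the most abundant, at 340.2 FPKM (control) and 367 FPKM (knockout), and made up 46.4% and 47.8% of the summed FPKM of the 9 genes. Oma1 was the least abundant, at 5.75 and 8.65 FPKM. The span from Oma1 to Immt was 59.2-fold in the control and 42.4-fold in the knockout library. All 9 passed the filter of at least 1 FPKM in either library, as did 11746 genes in all, whose median level was 8.39 FPKM (control) and 8.30 FPKM (knockout). Oma1 was thus the single gene of the 9 below the median in the control library, and it was slightly above it in the knockout library.

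The order of levels in the control library was Immt, Fis1, Mfn2, Mff, Opa1, Mfn1, Dnm1l, Yme1l1 and Oma1. The intervals of Fis1 and Mfn2 overlapped there, as did those of Mfn1 and Dnm1l, and all other neighbours were apart. In the knockout library Mfn2 stood above Fis1 and Dnm1l above Mfn1, both with intervals apart, while Mfn1 and Yme1l1 overlapped. Counts of the 9 genes were whole in both libraries, so no reads of theirs were divided with another gene. Exons of Dnm1l, Mff and Immt overlap an annotated gene on the opposite strand, of which none is listed in either library. That can mean no reads or no entry in the annotation used for counting. The protocol names no strand, so reads from those overlapping genes would be counted with the member.

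**Figure D1:**
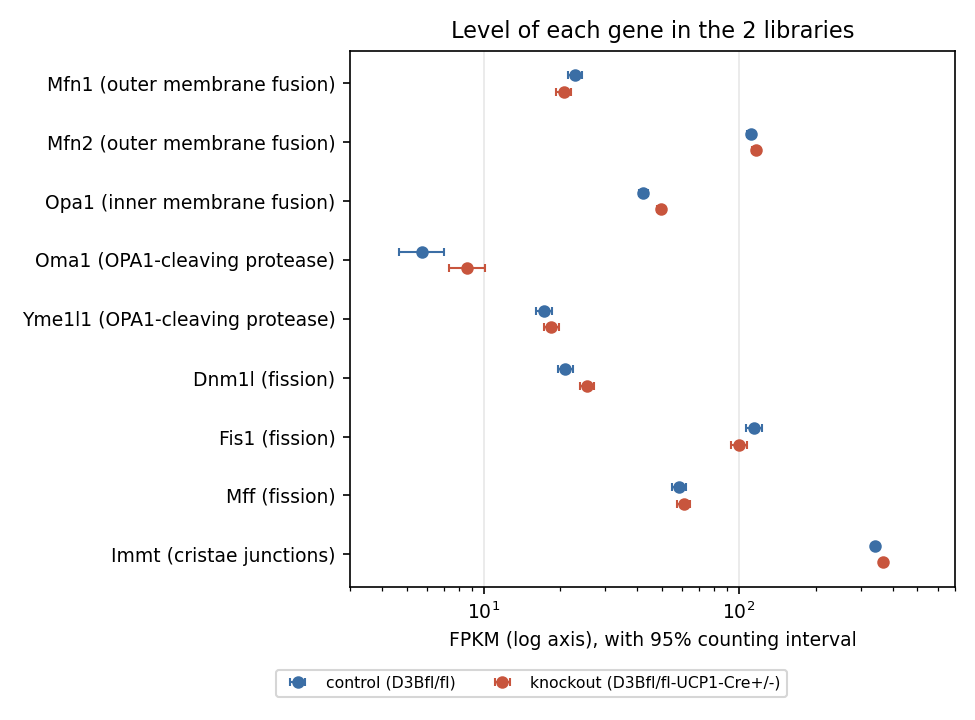
Level of each of the 9 genes in FPKM (log axis) in the control (blue) and the knockout library (red), with 95% counting intervals; each point is 1 library. Immt is highest at 340.2 and 367 FPKM and Oma1 lowest at 5.75 and 8.65 FPKM, and Fis1 and Mfn1 are the genes whose knockout point lies to the left.

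Differences between the libraries were small: 7 of the 9 genes were higher and 2 were lower in the knockout library, and the largest FPKM ratio, that of Oma1, was 1.5 (1.16 to 1.95). These directions were the same under all 9 other settings of scaling, pseudocount, filter and trend tried for each gene. Most of these settings are weak checks of direction. Pseudocounts and filters cannot change it, and the 3 rescalings of FPKM raised all knockout values, so they could only have turned the 2 lower genes. Differences in size are given as log2 of the quotient of FPKM + 1, knockout over control, which understates those of low genes, and a gene was called when that reached 1.5-fold and the interval of its ratio excluded 1. Among the 11746 tested genes 4.35% were called higher and 3.41% lower by this rule, and of the 9 genes 0 were called, Oma1 falling short once 1 is added to its FPKM values. At 1.2-fold, Oma1 and Dnm1l were called higher and none lower, against 12.6% and 15.3% of tested genes. With the FPKM totals of the libraries made equal, 678 genes were called higher and 298 lower, against 511 and 401 as deposited. The median log2 ratio of the 9 genes was 0.08, against -0.03 over all tested genes, of which 45.9% were higher and 53.8% lower. By the counting interval alone, whatever the size, 5 of the 9 genes were higher and 2 lower, against 18.2% and 22.4% of tested genes. Genes with many reads pass that rule at small differences. Among the 7534 genes whose mean reached 5 FPKM, which include all 9, the shares were 18.7% and 26.9%.

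The outer membrane fusion genes differed in opposite directions. Mfn1 was at 22.9 FPKM (21.5 to 24.4) from 995 counts in the control library and at 20.6 FPKM (19.3 to 22) from 932 counts in the knockout library. It was lower in the knockout library, with a ratio of 0.90 (0.822 to 0.985), a difference within counting error under the 3 rescalings of FPKM. Mfn2, the more abundant mitofusin, was at 111 FPKM (108 to 114) from 4664 counts in the control and 117 FPKM (113 to 120) from 5093 counts in the knockout library. Its ratio was 1.05 (1.01 to 1.09), a difference barely beyond counting error. Mfn1 therefore stood at 0.206 of the Mfn2 level in the control and 0.177 in the knockout library. The change of this quotient, which does not depend on how a library is scaled, was 0.858-fold (0.777 to 0.947).

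Opa1, the inner membrane fusion gene, was higher in the knockout library. It was at 42.1 FPKM (40.5 to 43.9) from 2416 counts in the control and at 49.5 FPKM (47.7 to 51.3) from 2954 counts in the knockout library. The intervals of the levels were apart, and the ratio was 1.17 (1.11 to 1.24). Of all tested genes 18.4% had a higher log2 ratio than Opa1. Against Mfn2, whose level was 2.64 times that of Opa1 in the control and 2.36 times in the knockout library, the quotient changed 0.894-fold (0.835 to 0.956).

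Oma1, the stress-activated protease of OPA1, had the largest ratio of the 9 genes. It was at 5.75 FPKM (4.68 to 6.99) in the control and at 8.65 FPKM (7.35 to 10.1) in the knockout library. The values rest on 101 and 158 counts, the fewest of the group. The ratio was 1.5 (1.16 to 1.95), and its log2 ratio with the pseudocount was 0.52, short of 1.5-fold. Of all tested genes 5.95% had a higher log2 ratio, so Oma1 lay towards the upper end of the range but inside it. Its log2 ratio with the pseudocount was 0.59 with the FPKM totals made equal, which is past 1.5-fold, and 0.34 with a pseudocount of 5.

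Yme1l1, the constitutive protease of OPA1, did not differ beyond counting error. It was at 17.3 FPKM (16.1 to 18.6) in the control and at 18.4 FPKM (17.2 to 19.7) in the knockout library, from 759 and 840 counts. The ratio was 1.06 (0.963 to 1.17), so a difference of up to 1.17-fold is not excluded by the counts, and with the FPKM totals made equal the interval lay above 1. The Oma1 level was 0.332 of the Yme1l1 level in the control and 0.470 in the knockout library, a change of 1.41-fold (1.07 to 1.87). Against their substrate Opa1, neither protease changed beyond counting error: the quotient of Opa1 to Oma1 went from 7.33 to 5.72, a change of 0.780-fold (0.598 to 1.01), and that of Opa1 to Yme1l1 from 2.43 to 2.69, a change of 1.10-fold (0.985 to 1.24).

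The fission genes differed in opposite directions. Dnm1l, which encodes the dynamin DRP1, was at 20.9 FPKM (19.5 to 22.4) from 801 counts in the control and at 25.4 FPKM (23.8 to 27.0) from 1011 counts in the knockout library. The ratio was 1.21 (1.10 to 1.33), and 15.5% of tested genes had a higher log2 ratio. Fis1 was at 115 FPKM (107 to 123) from 851 counts in the control and at 100.4 FPKM (93.4 to 108) from 769 counts in the knockout library. It was lower, with a ratio of 0.873 (0.791 to 0.964), whose interval included 1 with the FPKM totals made equal. Mff, the receptor of DRP1, was at 58.3 FPKM (54.8 to 61.9) and 60.7 FPKM (57.3 to 64.4), from 1054 and 1143 counts. Its ratio of 1.04 (0.958 to 1.13) included 1, and excluded it with the FPKM totals made equal.

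Relative to both of its membrane partners, the dynamin was higher in the knockout library. Dnm1l was at 0.182 of the Fis1 level in the control and 0.253 in the knockout library, a change of 1.39-fold (1.21 to 1.59). Against Mff it went from 0.359 to 0.417, a change of 1.16-fold (1.03 to 1.32). Fis1 was at 1.97 times the Mff level in the control and 1.65 times in the knockout library, a change of 0.838-fold (0.736 to 0.955). The summed FPKM of the fusion GTPases Mfn1, Mfn2 and Opa1 was 176 in the control and 187 in the knockout library, and that of Dnm1l, Fis1 and Mff was 194 and 186. The quotient of fusion to fission went from 0.908 to 1.0, with no interval computed for it and no correction for transcript length or GC content. That sum is mostly Mfn2 on one side and Fis1 on the other, and the lower fission sum came from Fis1 alone, since Dnm1l and Mff were higher.

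**Figure D2:**
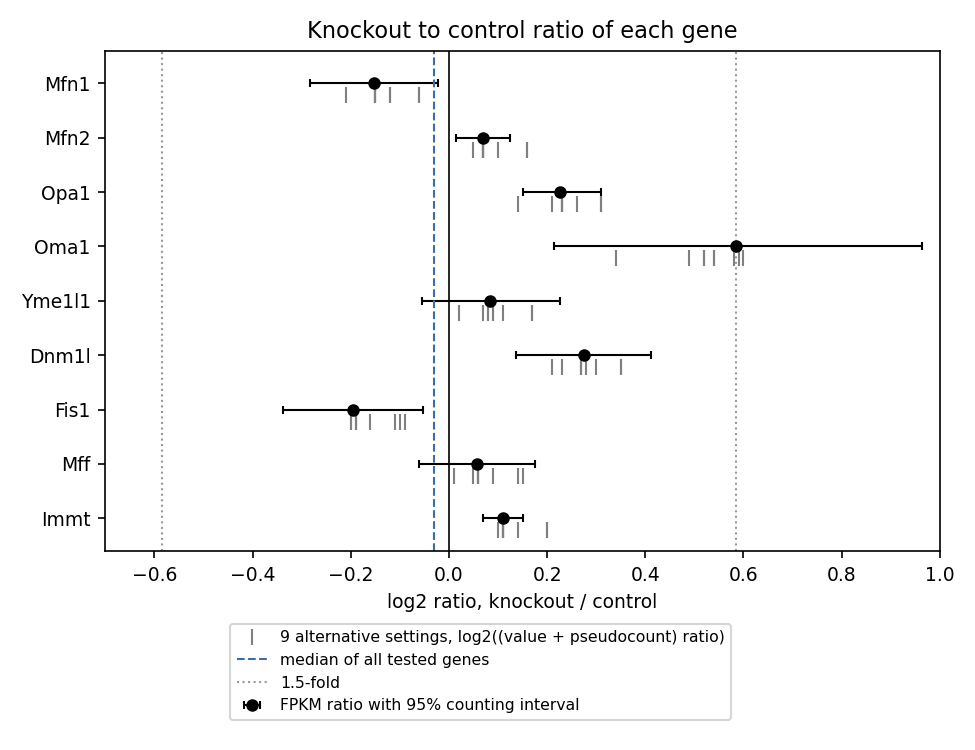
Knockout to control ratio on a log2 scale for each gene: black points are FPKM ratios with 95% counting intervals, and grey marks are the log2 ratios with pseudocount under 9 other settings. Oma1 lies furthest to the right with a ratio of 1.5, Fis1 and Mfn1 lie left of 0, and the dashed line marks the median of all tested genes at -0.03.

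Immt, the core of MICOS, was at 340.2 FPKM (333 to 348) from 8512 counts in the control and at 367 FPKM (360 to 374) from 9601 counts in the knockout library. The ratio was 1.08 (1.05 to 1.11), a small difference beyond counting error for the most deeply counted gene of the group. Other genes of the MICOS and the sorting and assembly machinery that MICOS contacts numbered 13 tested, of which 2 had a log2 ratio above 0 and 11 below, against 53.8% below over all tested genes. The median was -0.09, and 0 of the 13 were called, against 4.35% (higher) and 3.41% (lower) over all tested genes. Micos10, the other core subunit, was at 137 FPKM (control) and 112 FPKM (knockout), with a ratio of 0.818 (0.778 to 0.860). Micos13, which links MICOS subunits, had a ratio of 0.841 (0.792 to 0.892), and Samm50, the outer membrane partner, also had 0.841 (0.806 to 0.878). The median of this list was 0.00 with the FPKM totals made equal, so its direction depends on scaling. The median over all tested genes was then 0.05, against -0.03 as deposited. After removal of a trend with length, GC content and expression, the median was -0.08 for this list and -0.04 over all tested genes.

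Over all pairs of the 9 genes, 24 of 36 quotients differed between the libraries beyond counting error. The pairs share genes and are not independent. No quotient was corrected for a trend with length, GC content and expression. Removal of that trend took the log2 ratio of Fis1 from -0.19 to -0.09 and that of Mfn1 from -0.15 to -0.21. Mfn1 and Fis1 each differed against 7 of the other 8 genes, the exception being the pair they form, whose quotient changed 1.03-fold (0.901 to 1.18). Oma1 differed against 6 of 8, the exceptions being Opa1 and Dnm1l. Opa1 and Dnm1l kept their quotient within counting error, at 2.02 in the control and 1.95 in the knockout library (0.968-fold, 0.868 to 1.08). Mfn2, Yme1l1, Mff and Immt also kept the 6 quotients among themselves within counting error, with interval bounds from 0.883 to 1.16. The largest change was that of Oma1 to Fis1, from 0.050 to 0.0862, or 1.72-fold (1.31 to 2.28).

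**Figure D3:**
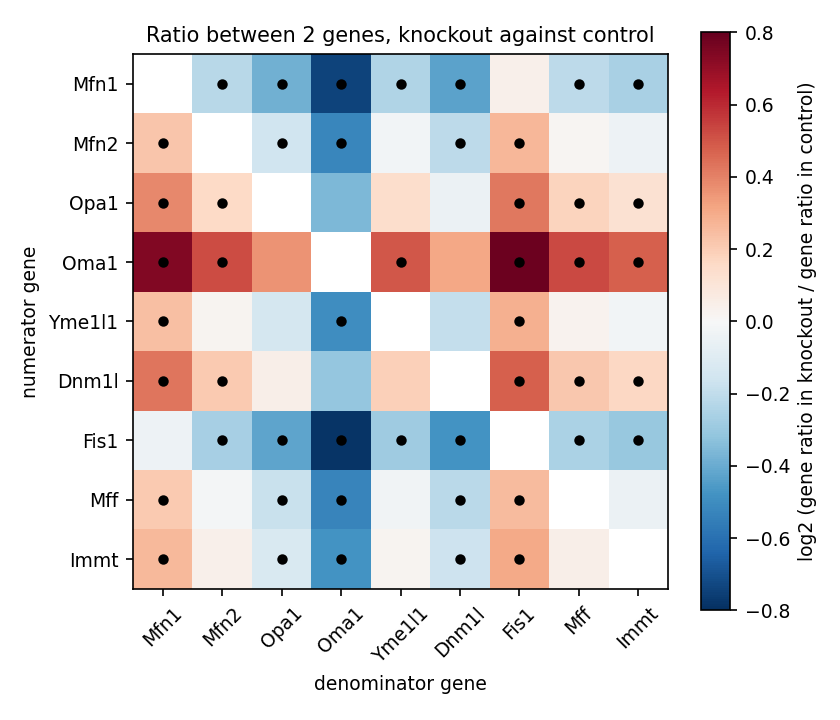
Change of the FPKM quotient of each pair of the 9 genes (row over column) between the libraries, on a log2 scale; black dots mark the 24 of 36 pairs whose 95% counting interval excludes no change. The rows of Mfn1 and Fis1 are mostly blue and that of Oma1 is red throughout, with the strongest colour for Oma1 over Fis1 at 1.72-fold.

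Transcript lengths differed among the 9 genes. Fis1, at 820 bases in the control library, had the shortest transcript of the group and the lowest ratio. Mfn1 was the other lower gene and has a long transcript of 4531 bases, while Oma1 has 1866 bases and Opa1 5963. With the trend in length, GC content and expression removed, the log2 ratios were 0.49 for Oma1, 0.21 for Dnm1l, 0.14 for Opa1, -0.09 for Fis1 and -0.21 for Mfn1. The interval of Fis1 then included 1, and so did that of Mfn2 at 0.05. Dnm1l, Opa1, Fis1 and Immt have more than 1 RefSeq transcript in the files, with a mean length that depends on which are used. That mean differed between the libraries by 11.23 bases for Immt, 3.72 for Opa1, -1.52 for Dnm1l and -4.02 for Fis1 (knockout minus control), so no large switch between transcripts of different length was seen.

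Genes that act on the same processes were described from 8 lists with 97 genes. Of the 94 tested, 30 had a log2 ratio above 0 and 63 below, the median was -0.07, and 1 was called, in the lower direction. Lonp1, at 0.00 after rounding, is in neither count, but is counted as above 0 in the list of inner membrane proteases. Over all tested genes 45.9% were above 0 and 53.8% below, the median was -0.03, and 4.35% were called higher and 3.41% lower. The called gene was Pld6, a mitochondrial phospholipase linked to fusion, at 3.49 FPKM (control) and 1.62 FPKM (knockout), at a ratio of 0.464 (0.285 to 0.741). Its values rest on 58 and 28 counts. Among the 9 tested fusion partners 2 were above 0 and 7 below, with a median of -0.11. Slc25a46, an outer membrane carrier-like protein of mitochondrial dynamics, had a ratio of 1.13 (1.05 to 1.22), and Mul1, a ubiquitin ligase that acts on mitofusins, 0.821 (0.742 to 0.907).

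The 14 tested fission receptors and regulators of DRP1 were split, with 6 above 0, 8 below and a median of -0.02 that changed sign under the 3 rescalings of FPKM. Mief2, another receptor of DRP1, was at 29.2 FPKM (control) and 19.7 FPKM (knockout). Its ratio of 0.676 (0.602 to 0.760) was further from 1 than that of Fis1. Mtfp1, an inner membrane protein that promotes division, had a ratio of 0.793 (0.704 to 0.893), Dnm2, a dynamin of the plasma membrane, 0.793 (0.718 to 0.875), and Mtfr1 1.26 (1.09 to 1.46). Inner membrane proteases and prohibitins had 3 of 10 genes above 0 and a median of -0.09. Phb2, a prohibitin that stabilises OPA1, had a ratio of 0.856 (0.812 to 0.903), while Clpp, a protease gene of the matrix, stood at 0.795 (0.736 to 0.859).

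Genes of cardiolipin, the lipid that OPA1 binds in the inner membrane, had a median of -0.05 over 9 tested genes, with 3 above 0. The alternative settings gave medians from -0.11, with the trend in length, GC content and expression removed, to 0.03, with the FPKM totals made equal. Crls1, the cardiolipin synthase, was at 164 FPKM (control) and 120.1 FPKM (knockout), a ratio of 0.732 (0.691 to 0.775). Pgs1, which acts earlier in the same pathway, had a ratio of 1.33 (1.14 to 1.56). Genes that move mitochondria along the cytoskeleton had a median of 0.12, with 6 of 10 above 0. Under the alternative settings that median ran from 0.04, with the trend in length, GC content and expression removed, to 0.19. The adaptor Trak2 had a ratio of 1.28 (1.18 to 1.39) and the motor Kif5b, with reads shared with other genes, 1.17 (1.07 to 1.28).

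Mitophagy genes had a median of -0.10, with 5 of 16 above 0. Map1lc3a, an autophagosome protein, had a ratio of 0.791 (0.745 to 0.840) and Fundc1, a receptor for mitophagy, 1.18 (0.996 to 1.39). Regulators of mitochondrial biogenesis had a median of -0.17, with 4 of 13 above 0. Ppargc1a, a coactivator known to induce Mfn2, had a ratio of 0.812 (0.735 to 0.896) and Tfb1m, a mitochondrial methyltransferase of ribosomal RNA, 0.656 (0.502 to 0.856). Pprc1, a coactivator related to Ppargc1a, differed the other way, with a ratio of 1.43 (1.11 to 1.84). No difference between these lists and the 9 genes was tested.

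**Figure D4:**
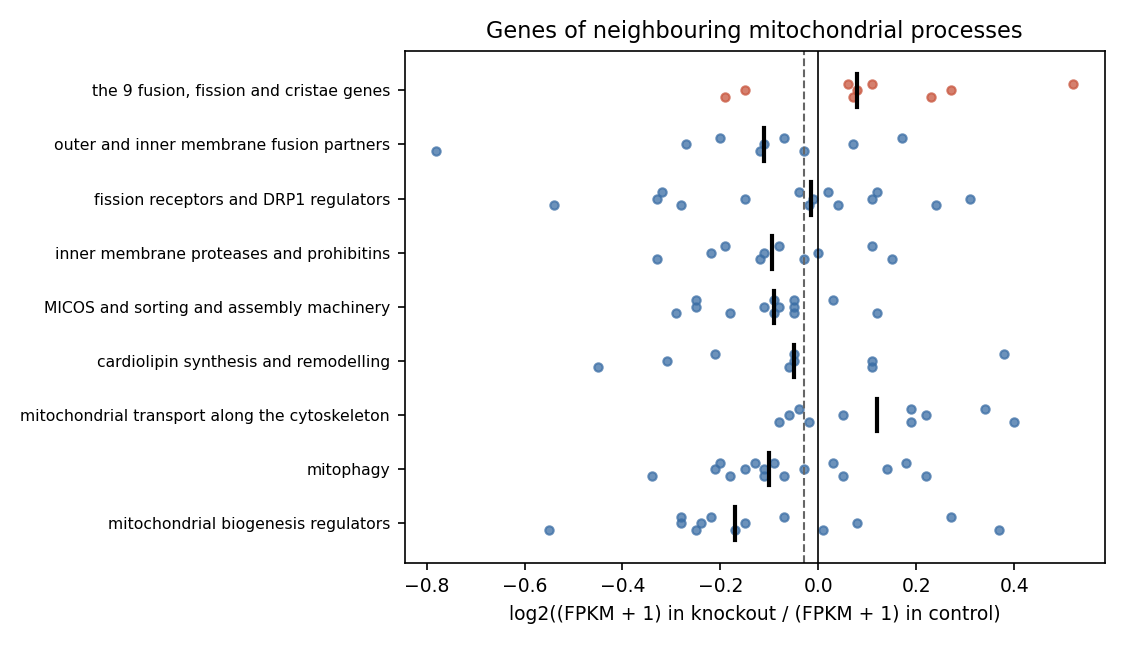
Each point is the log2 ratio with pseudocount of 1 tested gene, for the 9 genes (red) and 8 lists of neighbouring processes (blue); black bars are medians and the dashed line is the median of all tested genes. The 9 genes have a median of 0.08, the transport list 0.12, and the other lists lie between -0.17 and -0.02.

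Markers of cell types differed between these libraries as well. Of 10 brown adipocyte markers 9 were lower in the knockout library, against 53.8% of tested genes. Their summed level was 18822 FPKM (control) and 14675 FPKM (knockout), of which Cox8b held 7608 and 5132. Elovl3 was the exception and was called higher, with a ratio of 1.65 (1.46 to 1.87). Dio2 was called lower, at 0.620 (0.571 to 0.674). Over all tested genes 4.35% were called higher and 3.41% lower. FPKM over all genes summed to 606888 (control) and 571034 (knockout). The 6 genes listed as white adipocyte markers (Lep, Retn, Dpt, Nnat, Mest and Slc7a10) were all higher, at 488 and 923 FPKM in sum. Whether these genes are restricted to white adipocytes in this tissue was not tested. The 6 immune markers summed to 19.9 and 35.3 FPKM, with Cd3e at 0 in the knockout library. The 4 fibroblast markers, all higher, summed to 209 and 283 FPKM, the 4 smooth muscle and pericyte markers, all higher, to 85.0 and 111 FPKM, and the 4 endothelial markers, all lower, to 114 and 91.7 FPKM. The 4 Schwann cell markers summed to 15.5 and 14.7 FPKM and the 5 blood markers to 7563 and 7413 FPKM, Hbb-bt not being listed in either. Skeletal muscle, a tissue rich in Mfn2, was near 0 in both, with 12 markers summing to 3.50 and 3.55 FPKM and Ckm, Ttn and Myh7 at 0 in both. Of these 12, Acta1 alone reached 1 FPKM, at 1.38 FPKM (control) and 2.71 FPKM (knockout), from 19 and 39 counts. It was called higher, as were 4.35% of tested genes, with a ratio of 1.96 (1.11 to 3.60). The other listed muscle markers had a few counts at most. They were mostly lower, as Mylpf with 5 and 2 counts, while Actn3 had 0 and 1. The part of the other cell types in the values of the 9 genes was not tested.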

How the data were processed

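Libraries of polyadenylated RNA were made by fragmentation, cDNA synthesis and PCR, per the labels' protocols. The authors deposited an expected count (estimated reads per gene, made with RSEM) and an FPKM value per gene for each library, with mouse build mm9, per the file headers and the submitters' processing notes. Aligner and strand setting: not given in the sources used here. Genes without a line in a library count as 0 there. Gene symbols are those of RefSeq (GRCm38.p6), with 16134 of 16174 genes matched, and overlapping genes and GC content from GENCODE M21.

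Genes that reached 1 FPKM in a library were tested against a rule of size: log2((FPKM + 1) ratio) of at least 1.5-fold with an interval that excludes 1. Intervals of levels are exact Poisson and those of ratios exact conditional (Clopper-Pearson) 95% intervals of rounded expected counts, scaled to FPKM. Quotients of a pair used the conditional odds ratio. A count is called whole within 0.05. The calculation of ratio intervals was checked on simulated Poisson counts. These hold no copied reads and no spread between mice, so the check does not bear on either. Python 3.11.15, numpy 2.4.6 and scipy 1.17.1 were used. No p-value is given, with 1 library per group.

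The genes, lists and rules were chosen with earlier results of these data known. All 9 genes were named, and of each list up to 4 tested genes with the largest absolute log2 ratio could be named. Alternatives were pseudocounts of 0.1 and 5, no filter, a mean of at least 5 FPKM, CPM, 3 rescalings of FPKM, removal of a smooth trend with length, expression and GC content, genes with whole counts, and folds of 1.2 and 2.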

Additional observations from a re-analysis of the deposited data

How the results depend on the processing

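All 9 genes kept the direction of their log2 ratio under the 9 alternative settings run for each. Pseudocounts and filters cannot change a direction, and the 3 rescalings could not have turned a higher gene lower. The median of the 9 genes was 0.08 as deposited, against -0.03 over all tested genes. With the trend in length, GC content and expression removed it was 0.05, against -0.04 over all tested genes. With the same FPKM total in each library it was 0.17, against 0.05. The count of genes past the rule, 0 as deposited, was 1 (Oma1) with the same FPKM total in each library, again 1 when the 20 most abundant genes were left out of that total, and 2 (Oma1 and Dnm1l) at 1.2-fold, where 12.6% of tested genes were higher and 15.3% lower. It was 0 under the other alternatives. The lower level of Mfn1 was within counting error under the 3 rescalings, and that of Fis1 with the same total, with or without the top genes, and with the trend removed. Yme1l1 and Mff were higher beyond counting error with the same total, with or without the top genes. Over all genes, 511 were called higher and 401 lower, against 748 and 621 with a pseudocount of 0.1, 136 and 107 with a pseudocount of 5, 831 and 677 on CPM, 221 and 191 at a mean of at least 5 FPKM, 684 and 297 with the same total without the top genes, 106 and 79 at 2-fold, and 1484 and 1792 at 1.2-fold. Depth limits Oma1 most, with 101 and 158 counts. No paired analysis was possible because there is 1 library per group.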
